A study of Homo sapiens with 2 samples.

Results

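The genes described here are CASTOR1, an arginine sensor, and 9 further genes that carry amino acid signals to the growth kinase complex mTORC1: the sestrins SESN1, SESN2 and SESN3, the Rag GTPases RRAGA, RRAGB, RRAGC and RRAGD, and the tuberous sclerosis genes TSC1 and TSC2. They were picked by gene name, and every array feature that carries 1 of the 10 names was taken, which gave 16 of 45033 features and 10 of 23619 genes. CASTOR1 stands in the array's annotation under a placeholder name for a hypothetical protein and was matched through its gene identifier (652968). It was chosen because of its large difference between the arrays, so that difference is a description, as are the values of all members below.

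RNA from TE-1, an established cell line of human oesophageal cancer, was hybridised to single-colour NimbleGen expression arrays 24 h after transfection. One group received the plasmid pcDNA3.1 carrying PAX2, a paired-box transcription factor, and its control group received pcDNA3.1 without an insert. The design asks which genes PAX2 activates. Each group held 1 array, so there is no replicate and no difference below has a p-value; precision is limited by having so few arrays. Both groups share the cell line, the plasmid backbone and the time point. A bulk array cannot tell fewer cells that express a gene from less RNA of it in each cell.

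Cells read their amino acid supply at the lysosome. When arginine is scarce, free CASTOR1 binds and blocks the complex GATOR2, and leucine-free SESN1 and SESN2 do the same. GATOR2 restrains GATOR1, which switches off RagA and RagB; active Rag pairs, built of RagA or RagB with RagC or RagD, bring mTORC1 to the lysosome. There the GTPase Rheb turns the kinase on, unless the TSC1 and TSC2 complex holds Rheb in its inactive state.

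Each value is an RMA intensity, a brightness on a linear scale summarised over the 3 probes of a feature. The brightness of the middle feature was 210 on the PAX2-labelled array and 205 on the control array, and random-sequence probes gave 19.3 on the PAX2-labelled array and 20.6 on the control array. The single PAX2 feature had an intensity of 22.1 on the PAX2-labelled array and 22.2 on the control array, so the arrays give no sign of the transgene, and the array is called PAX2-labelled for that reason. The range of silent genes was read from 376 olfactory receptor genes, which epithelial cells rarely express: its top, their 95th percentile, was log2 7.15 on the PAX2-labelled array and 7.07 on the control array. Of 8 squamous epithelial markers, KRT5, KRT14 and DSP were measured, while KRT6A, TP63, DSG3 and CDH1 were in the range of silent genes on both arrays. EPCAM missed the filter and was in that range on the PAX2-labelled array only. The differences were 0.72 for KRT5, 0.25 for DSP and 0.17 for KRT14. The summed intensity of the 8 markers was 16702 on the PAX2-labelled array and 14127 on the control array. All 5 leukocyte markers and all 4 endothelial markers were in that range on both arrays, as were 3 of 5 fibroblast markers. The other fibroblast markers, COL1A1 and DCN, had log2 differences of 0.46 and 0.09. The summed intensity of the 5 fibroblast markers was 1735 on the PAX2-labelled array and 1371 on the control array, and the part of either sum in the results below was not tested.

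Of the 10 members, CASTOR1 was far lower on the PAX2-labelled array and the 5 others that passed a brightness filter differed by less than 2-fold. The remaining 4 were too dim to pass it. Differences are log2 intensity on the PAX2-labelled array minus log2 intensity on the control array, averaged over the features of a gene. A gene counts as measured where its mean log2 intensity was no lower than that of the median feature on 1 array or both. By this rule 6 members were measured: CASTOR1, SESN2, RRAGA, RRAGC, TSC1 and TSC2, and each of them passed on both arrays. Of these 6, CASTOR1 alone was at least 2-fold lower, no member was 2-fold higher, and 5 stayed within 2-fold. Counted by feature, 11 of the 16 passed the same filter, 1 of them was 2-fold lower and none higher, beside 1.48% lower and 1.74% higher among all 23459 measured features. Over all 11636 measured genes, 1.16% were at least 2-fold lower and 1.13% at least 2-fold higher. With CASTOR1 picked for its decrease, nothing is read from its count against that background. The 5 measured members other than CASTOR1 had differences from -0.38 to 0.41, with a median of 0.16, against a median of 0.02 and an SD of 0.38 over all measured genes.

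**Figure D1:**
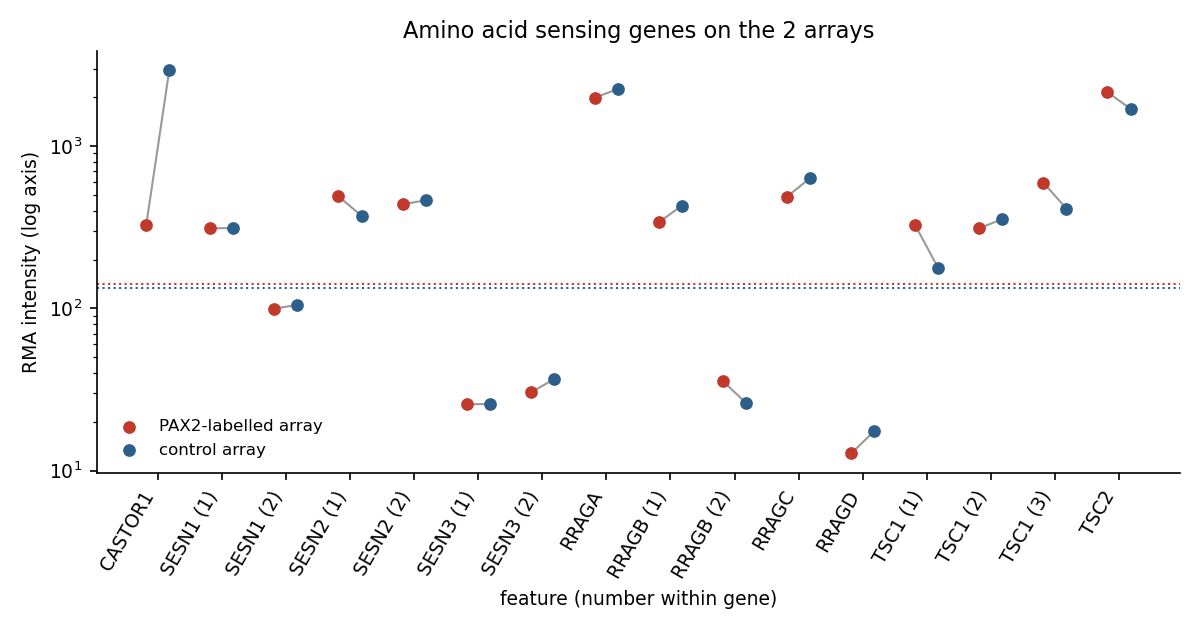
RMA intensity (log axis) of the 16 features of the 10 genes, with the PAX2-labelled array left and the control array right within each pair. Dotted lines mark the top of the range of silent genes on each array (142 on the PAX2-labelled array and 134 on the control array); CASTOR1 stands at 327 on the PAX2-labelled array, against 2944 on the control array, and every other pair lies within 2-fold.

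CASTOR1, the cytosolic protein that binds arginine, had an intensity of 327 on the PAX2-labelled array and 2944 on the control array. That is log2 8.35 on the PAX2-labelled array against 11.52 on the control array, a difference of -3.17, or 9.02-fold lower. Its only feature (NM_001037666, HG18 chromosome 22, 29011107 to 29015502) is annotated over the whole transcript. The feature was not silent on either array. It lay 1.20 log2 units above the range of silent genes on the PAX2-labelled array and 4.45 above it on the control array, so its fold was computed between measured levels. On the control array it was brighter than 86.4% of all features, and on the PAX2-labelled array brighter than 56.2%.

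Bright genes seldom differed this much between the arrays. Among the 4394 features whose mean log2 intensity lay within 0.5 of that of CASTOR1, the SD of the difference was 0.33 and none differed as much in either direction. Of the 2767 measured genes at least as bright as CASTOR1 on the control array, CASTOR1 included, 5 were at least 2-fold lower and 3 at least 2-fold higher. The next lowest of these after CASTOR1 was SERPINE2, a serine protease inhibitor, with a difference of -2.01. Among the 11442 measured genes above the silent range on both arrays, CASTOR1 had the lowest difference. Over all 11636 measured genes its rank among decreases was 4. These values describe how CASTOR1 was picked and test nothing.

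**Figure D2:**
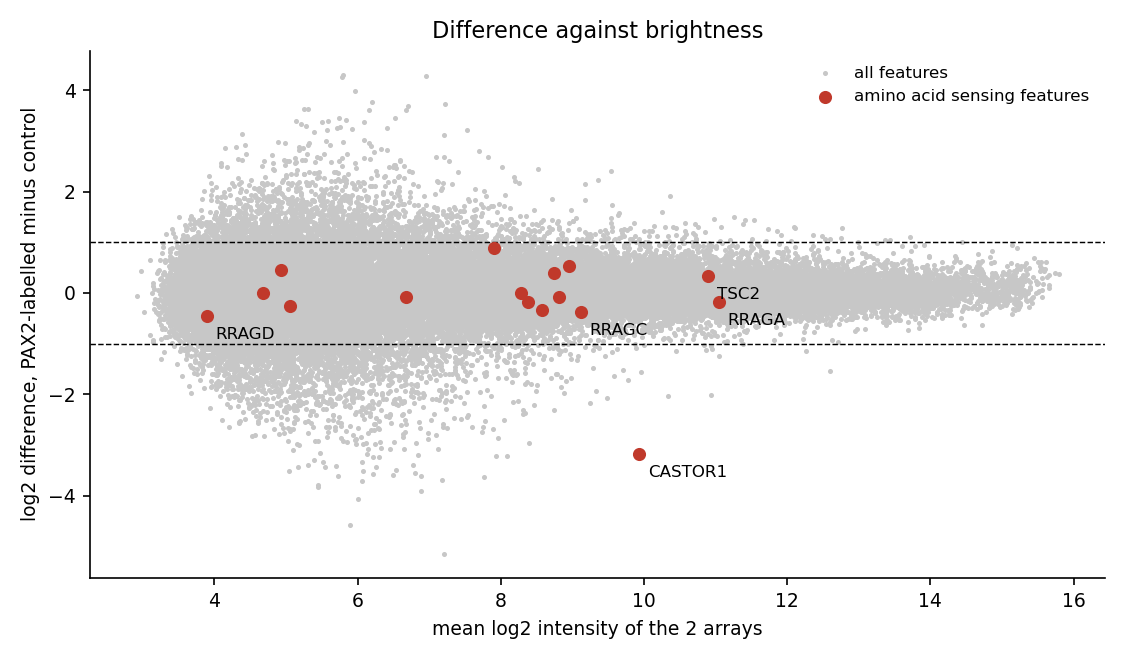
Log2 difference (PAX2-labelled minus control) against the mean log2 intensity of the 2 arrays for 45033 features (grey) and the 16 features of the 10 genes (red). Dashed lines mark 2-fold; CASTOR1 at -3.17 lies far below the grey cloud at its brightness, and the other 15 red points lie between the lines.

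The files also hold a number for each feature under the heading of a standard error, whose meaning and unit are not stated. It lies between 0 and 1 for features with 3 probes, and it is higher for brighter features. For CASTOR1 it was 0.41 on the PAX2-labelled array and 0.85 on the control array. On the PAX2-labelled array, features within 0.5 log2 units of its brightness had a median of 0.93, and 1 of 4461 was at or below the value of CASTOR1. On the control array the median was 0.99, and 31 of 3442 were at or below it. CASTOR1 thus stood at the low edge on both arrays. The values of the other 15 features lay inside the bulk: between 9.78% and 82.3% of features of like brightness were at or below them on the PAX2-labelled array, and between 14.7% and 86.3% on the control array.

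Features with such low numbers differed 2-fold more often. Each measured feature with 3 probes was ranked within 20 bins of brightness on each array, and the lower of its ranks was taken. In the lowest 1% of ranks, 66 of 333 features (19.8%) differed at least 2-fold, 30 of them higher and 36 lower. In ranks above 25%, 214 of 16587 (1.29%) did. CASTOR1 had a rank of 0.17% on the PAX2-labelled array and 1.02% on the control array. The part of this number in the decrease of CASTOR1 was not tested, and with 1 feature no second probe set can be set beside it.

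**Figure D3:**
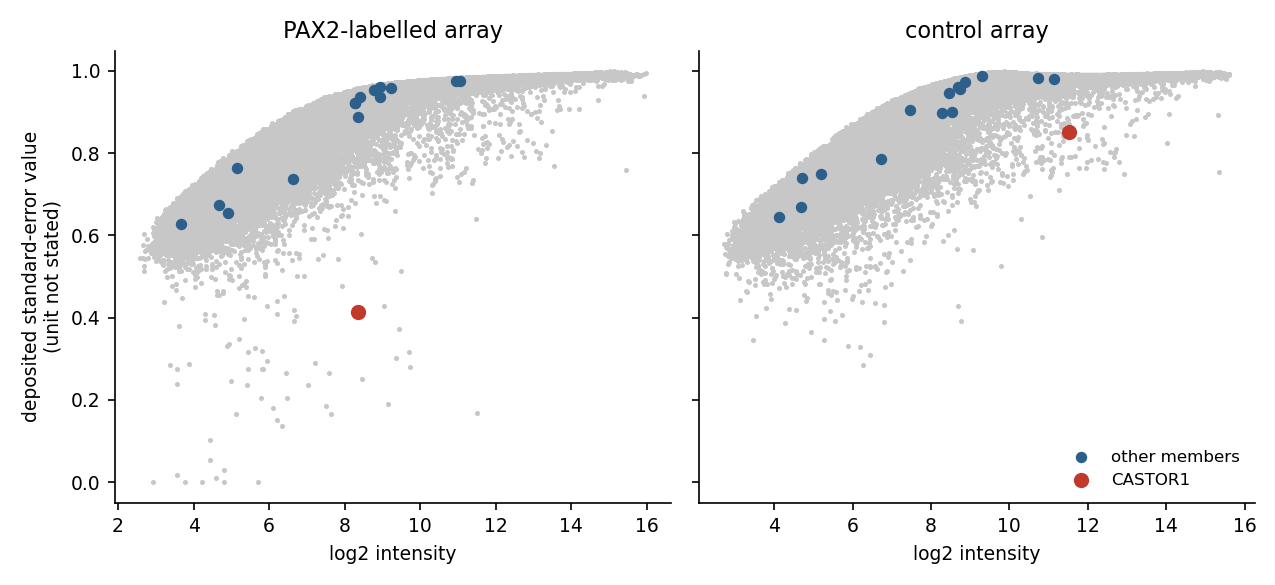
The deposited standard-error value of each feature with 3 probes (unit not stated) against its log2 intensity, on the PAX2-labelled array (left) and the control array (right). CASTOR1 (red) lies below the grey cloud on the PAX2-labelled array (0.41) and at its lower edge on the control array (0.85), while the features of the other members (blue) lie inside it.

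None of the measured genes within 1 Mb of CASTOR1 on chromosome 22 was 2-fold lower, while OSM, a dim neighbour below the filter, had a lower value. The nearest neighbour, TBC1D10A, a Rab GTPase-activating protein 2.48 kb away, had log2 values of 10.20 on the PAX2-labelled array and 9.93 on the control array, a difference of 0.27. The next on that side were the splicing factor SF3A1 (difference 0.02) and CCDC157 (0.62). On the other side, OSM, the cytokine oncostatin M, lies 18.3 kb away and had intensities of 58.7 on the PAX2-labelled array and 182 on the control array, a computed difference of -1.63. It was below the filter on both arrays and as dim as silent genes on the PAX2-labelled array. Against the top of that range its computed value was at least 1.28-fold lower. Dim features vary widely: the SD of the difference over the 376 olfactory receptor genes was 0.82. The related cytokine LIF had a difference of 0.65, and LOC646475, 52.1 kb away, was in the silent range on both arrays. Within 1 Mb on either side, 27 other genes were measured, with a median difference of 0.02 and a lowest difference of -0.48. Of the 27, 1 was 2-fold higher: MTMR3, a phosphoinositide phosphatase, at 1.44, named after its value was seen.

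**Figure D4:**
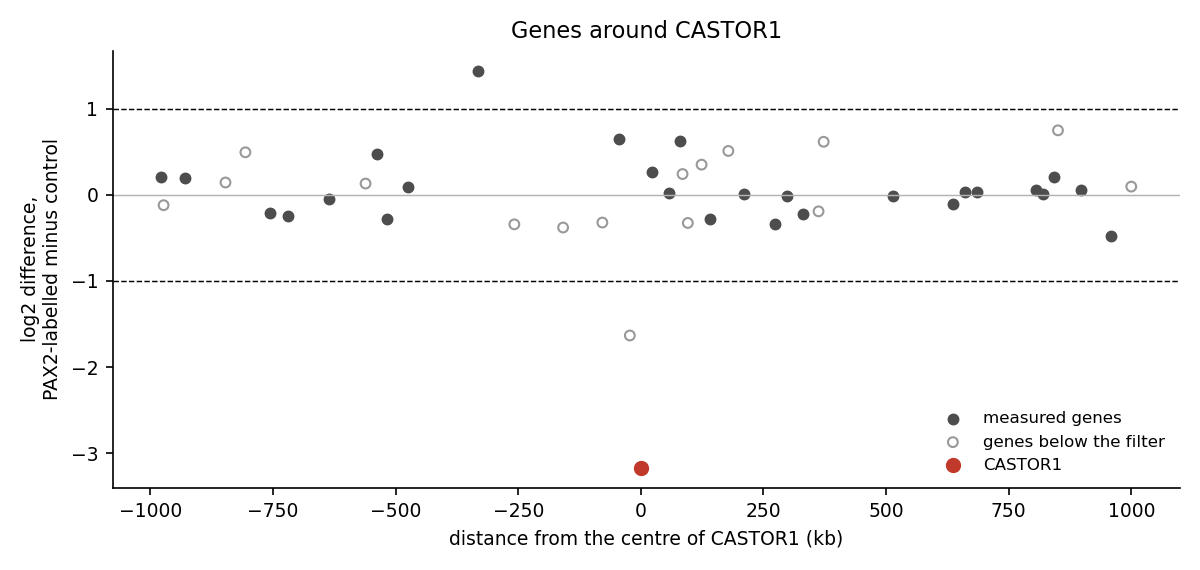
Log2 difference (PAX2-labelled minus control) of genes within 1 Mb of CASTOR1 on chromosome 22, by distance from its centre in kb. Filled points are measured genes and open points genes below the filter; CASTOR1 at -3.17 (red) lies alone, and the nearest low point is the dim OSM at -1.63.

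The genes most like CASTOR1 in their pair of intensities were CDK2AP2P3, CPA4, SERPINE2, COPG2 and LINC00273. Likeness was the straight-line distance between pairs of log2 values over the 2 arrays, taken over genes with 1 feature and a full symbol. CDK2AP2P3, a pseudogene, was nearest at 1.14 log2 units, with log2 values of 9.18 on the PAX2-labelled array and 10.74 on the control array. The carboxypeptidase CPA4, SERPINE2, the coatomer subunit COPG2 and the long noncoding RNA LINC00273 lay between 1.60 and 1.69 away. Thus none of the genes compared matched CASTOR1 closely. CASTOR3P, a transcribed pseudogene of the CASTOR family with 4 features, had a difference of 0.23, and its features ranged from -0.03 to 0.57.

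The promoter window of CASTOR1 is shown because the study looked for genes that PAX2 acts on. Promoter windows of 300 bases (250 before and 50 after the start) come from RefSeq on build GRCh38.p14, and 8 of the 10 members had 1 or more, 11 windows in all; RRAGA and RRAGD had none. In each, 3 motifs were searched on both strands: GTCACGC, the core of the site of the paired domain shared by PAX2, PAX5 and PAX8; CACGTG, the E-box within the site of the lysosomal regulator TFEB; and TGATGNAAN, a form of the ATF4 site. Capitals mark a match. The CASTOR1 window (minus strand, chr22:30289456-30289755, GRCh38.p14) holds GTCACGC once, on its opposite strand, with its first printed base at position -201 from the start.
CASTOR1: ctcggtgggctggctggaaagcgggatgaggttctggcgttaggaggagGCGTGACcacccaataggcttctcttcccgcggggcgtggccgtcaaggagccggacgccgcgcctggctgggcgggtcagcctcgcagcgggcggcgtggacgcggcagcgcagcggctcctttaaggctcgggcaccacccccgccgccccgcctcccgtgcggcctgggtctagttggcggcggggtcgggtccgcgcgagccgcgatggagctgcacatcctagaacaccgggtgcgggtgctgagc
Of all 35116 windows, 2.52% hold this motif, and of all 27305 genes with a window, 3.11% do. CASTOR1 was the only 1 of the 8 members with a window that had it. A match of these letters is a description and does not show that PAX2 binds there.

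The sestrins are stress-induced proteins, and SESN1 and SESN2 sense leucine. SESN2 (HG18 chromosome 1) had intensities of 490 and 438 in its 2 features on the PAX2-labelled array, and 371 and 463 in the same features on the control array. The features disagreed in direction, with differences of 0.40 and -0.08, and the mean was 0.16. SESN1 (chromosome 6) had intensities of 311 and 99.6 on the PAX2-labelled array, against 313 and 105 on the control array, and the brighter feature had a difference of -0.01. Its mean log2 intensity missed the filter on both arrays, and its dimmer feature was in the silent range on both. SESN3 (chromosome 11), the third sestrin, had intensities of 25.7 and 30.4 on the PAX2-labelled array, and 25.8 and 36.5 on the control array. Both SESN3 features were in the silent range on both arrays, so no fold is given. No sestrin reached 2-fold in the gene mean or in any feature.

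The Rag GTPases work as pairs, and 1 gene of each kind was measured. RRAGA (NM_006570, HG18 chromosome 9, 19039371 to 19041023) gave intensities of 1985 on the PAX2-labelled array and 2248 on the control array, a difference of -0.18. RRAGC (NM_022157, chromosome 1, 39077591 to 39097927) gave intensities of 488 on the PAX2-labelled array and 635 on the control array, a difference of -0.38. Both were slightly lower on the PAX2-labelled array, and neither stood apart: of the features within 0.5 log2 units of its brightness, 47.0% differed at least as much as RRAGA and 25.1% at least as much as RRAGC.

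RRAGB, which can take the place of RagA, has 2 features for its 2 transcripts, both at HG18 chromosome X, 55760903 to 55801932. The feature NM_006064 had an intensity of 340 on the PAX2-labelled array and 430 on the control array, a difference of -0.34. The feature NM_016656 had an intensity of 35.6 on the PAX2-labelled array and 26.2 on the control array and was in the silent range on both arrays. The mean of the gene, which lay below the filter on both arrays, had a difference of 0.05 and hides the opposite signs of its features. RRAGD, the alternative partner to RagC, had intensities of 12.8 on the PAX2-labelled array and 17.5 on the control array, under the random-sequence probes on both.

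E-boxes were found in the windows of RRAGB, RRAGC and TSC2, and these windows are shown for that match. The RagC and RagD genes are known targets of TFEB, but RRAGD had no window. Capitals mark CACGTG, and in TSC2 also an overlapping TGATGNAAN. The windows are chrX:55717499-55717798 (plus strand) for RRAGB, chr1:38859723-38860022 (minus strand) for RRAGC and chr16:2047735-2048034 (plus strand) for TSC2, all on GRCh38.p14.
RRAGB: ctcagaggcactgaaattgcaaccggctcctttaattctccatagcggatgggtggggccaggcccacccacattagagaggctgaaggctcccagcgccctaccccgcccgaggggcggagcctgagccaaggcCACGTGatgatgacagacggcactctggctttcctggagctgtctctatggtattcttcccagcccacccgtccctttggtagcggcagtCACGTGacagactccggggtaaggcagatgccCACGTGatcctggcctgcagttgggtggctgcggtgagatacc
RRAGC: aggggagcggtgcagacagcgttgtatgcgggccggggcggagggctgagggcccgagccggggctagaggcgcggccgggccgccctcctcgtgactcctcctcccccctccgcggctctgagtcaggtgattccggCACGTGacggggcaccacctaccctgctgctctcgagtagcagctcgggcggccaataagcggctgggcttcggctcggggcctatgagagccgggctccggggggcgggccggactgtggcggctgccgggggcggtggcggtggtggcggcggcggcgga
TSC2: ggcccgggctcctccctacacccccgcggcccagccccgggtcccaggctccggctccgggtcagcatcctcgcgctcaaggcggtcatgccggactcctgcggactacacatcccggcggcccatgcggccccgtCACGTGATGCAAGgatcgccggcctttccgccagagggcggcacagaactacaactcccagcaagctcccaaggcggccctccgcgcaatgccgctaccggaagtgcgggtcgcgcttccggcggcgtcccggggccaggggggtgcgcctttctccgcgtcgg
RRAGB held 3 E-boxes, and RRAGC and TSC2 held 1 each. The E-box stands in 7.26% of all windows and TGATGNAAN in 3.61%. Counted by gene, the shares are 8.77% for the E-box and 4.45% for TGATGNAAN. In TSC2 both share the letters TG. These matches are descriptions and do not show that TFEB or ATF4 binds there. No match to any of the 3 motifs was found in the windows of SESN1, SESN2, SESN3 and TSC1, or in the second window of TSC2, which says only that these letters are not there.

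TSC1 and TSC2, which together hold Rheb inactive, had positive differences. TSC2 (NM_000548, HG18 chromosome 16, 2038599 to 2078713) gave intensities of 2148 on the PAX2-labelled array and 1697 on the control array, a difference of 0.34, or 1.27-fold. Of the features of like brightness, 19.6% differed at least as much. TSC1 (chromosome 9) has 3 features of overlapping transcripts. Their intensities were 325, 312 and 595 on the PAX2-labelled array, against 177, 355 and 412 on the control array. The first feature passed the filter on the PAX2-labelled array only, where it was brighter, so nothing is read from its difference. The differences were 0.88, -0.19 and 0.53, a mean of 0.41 (1.33-fold) with an SD between features of 0.54. The features of 1 gene thus spread more than their mean lies from 0; over 6170 genes with several measured features the pooled SD between features was 0.31. Among measured genes, 16.6% differed at least as much as TSC1 and 22.3% at least as much as TSC2.

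No gene of the wider pathway past the filter reached 2-fold. Of 92 further genes in 13 lists, 90 were on the array and 83 were measured. None of the 83 was 2-fold higher or lower, against 1.13% and 1.16% of all measured genes. Of the 83, 43 (51.8%) had positive and 40 negative differences, beside 53.5% positive among all measured genes. The median was 0.01 beside 0.02 over all. Lists are described by their counts and medians only, and nothing particular to a list is read from them.

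The sensors and the GATOR complexes differed little. Of the other amino acid sensors, LARS1, the leucyl-tRNA synthetase, had the lowest difference at -0.10 and SAR1B the highest at -0.01, with the lysosomal arginine sensor SLC38A9 at -0.10. All 3 GATOR1 genes were measured, from NPRL2 (-0.02) to DEPDC5 (0.24). All 5 GATOR2 genes, the complex that CASTOR1 binds, were measured, from WDR24 (-0.13) to SEH1L (0.23), with a median of 0.01, which turned sign with centring, quantile normalization, loess or the brightest feature (lowest -0.10). In KICSTOR, the scaffold that places GATOR1 on the lysosome, 3 of 4 genes were measured, from KPTN (-0.08) to ITFG2 (0.23).

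Of the lysosomal anchor genes, 5 of 6 measured genes had negative differences, beside 5415 of all 11636 measured genes. Of the 5, FNIP2 passed the filter on the control array only, where it was brighter, so nothing is read from this count. The list joins Ragulator, which tethers the Rag GTPases, with the folliculin complex, which acts on RagC and RagD, and its median was -0.33. The median was -0.16 with the brightest feature of each gene and -0.17 with no filter. LAMTOR1, the membrane anchor of Ragulator, had an intensity of 1711 on the PAX2-labelled array and 2646 on the control array, a difference of -0.63 in its 1 feature. LAMTOR4 followed at -0.46, FNIP2 had -0.62 in a dim feature that on the PAX2-labelled array was as dim as silent genes, and LAMTOR3 had the highest difference (0.09). None reached 2-fold. Of the 2 genes below the filter, FLCN, folliculin itself, had intensities of 202 on the PAX2-labelled array and 146 on the control array, a difference of 0.47, and FNIP1 was in the silent range on both arrays.

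Downstream genes spread to both sides of 0. RHEB had a difference of -0.06 and TBC1D7, the third subunit of the TSC complex, of -0.17. Among mTORC1 subunits, RPTOR, which binds substrates, was lowest (-0.24), MLST8 was highest (0.33), and the kinase MTOR had -0.06. Of the proton pump genes of the V-ATPase, 13 of 14 were measured, from ATP6V0A1 (-0.25) to ATP6V0D1 (0.30). Among the inputs from growth factors and energy, PRKAA2, a catalytic subunit of AMPK, was lowest (-0.24) and the kinase AKT2 highest (0.50). Of the 11 mTORC1 effectors, the ribosomal protein and S6 kinase substrate RPS6 was lowest (-0.38) and the autophagy protein ATG13 highest (0.51), with the S6 kinase RPS6KB1 at -0.05 and the translation repressor EIF4EBP1 at -0.04.

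All 21 TFEB factors and lysosomal targets were measured, and 13 had positive differences, beside 6220 of all 11636 measured genes (53.5%). Their median was 0.09, which was 0.02 with the brightest feature and -0.03 with the filter at the 75th percentile. GLA, a lysosomal galactosidase, was lowest (-0.18) and the autophagosome protein MAP1LC3B highest (0.66). Among 5 regulators of sestrin transcription, 4 had positive differences, and nothing is read from so few genes beside that share of 53.5%. FOXO1 was lowest (-0.25), and ATF4, which induces SESN2, had 0.03.

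**Figure D5:**
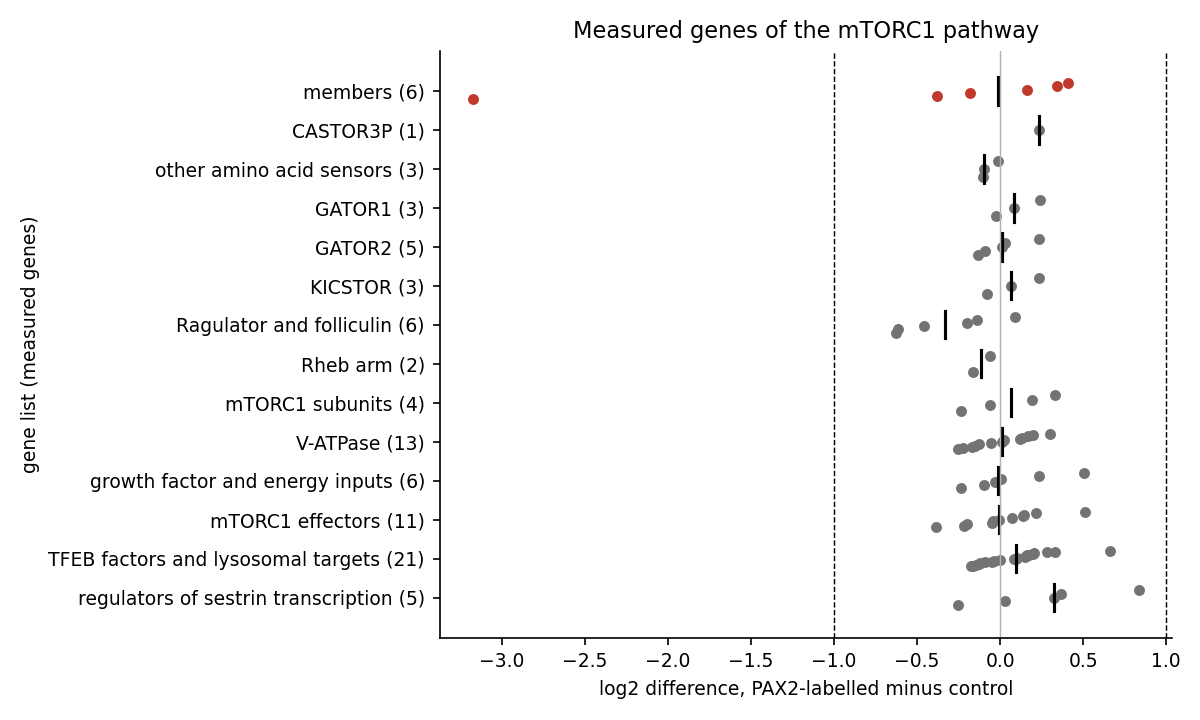
Log2 difference (PAX2-labelled minus control) of each measured gene, by list, with the number of measured genes in brackets and the list median as a black bar. Dashed lines mark 2-fold; CASTOR1, the red point at -3.17, is the only gene shown past them.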

How the data were processed

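Total RNA of 2 samples was measured on 1 array each. The authors deposited linear intensities per feature, made with RMA per the submitters' processing notes; not given in the sources used here are its version and between-array step. The deposited score headed as a standard error has no stated meaning and was only ranked. Features were grouped by gene identifier; 38916 of 42947 matched a symbol of the RefSeq table (GRCh38.p14). Log2 intensities were averaged per gene, with no pseudocount and no further normalization, in Python 3.11.15. Genes are counted past 2-fold; with 1 array per group there is no test. The counting was tested on simulated data. All members are named; of each list, any measured gene past 2-fold and the lowest and highest measured gene; further genes serve as examples, chosen after their values were seen. A gene that this rule names is not reported here. Members and lists were chosen with earlier results of these data known. Alternatives took the values from the series table, centred or quantile-normalized the arrays, removed a loess trend (fraction 0.3), added an offset of 64, used the brightest feature, or changed filter and threshold.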

Additional observations from a re-analysis of the deposited data

How the results depend on the processing

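No paired analysis was possible because there is only 1 array per group, and for the same reason no replicate could be left out. The CASTOR1 difference stayed between -3.21 and -2.95 in 6 alternatives, at the least 7.70-fold lower (offset of 64). The series table held the same values for all 45033 features, and CASTOR1 has 1 feature. The series table and the brightest feature therefore could not change its difference. CASTOR1 was the 1 member past the threshold in all 10 alternatives. Of 54 recomputed values of the other members, 2 moved by more than the SD between features, RRAGB with the brightest feature (-0.34) and RRAGD with the offset (-0.09), and 3 turned sign: SESN2 with the brightest feature (-0.08) and RRAGB in 2 settings. For the pathway lists, 1 gene was 2-fold higher with no filter, and 2 were higher and 2 lower at 1.5-fold; these follow from the settings themselves. Their median lay between -0.03 and 0.01, so its sign is not settled, and 15 of 103 single list medians turned sign. Over all genes, 132 were higher and 135 lower; the offset gave 69 and 91, the brightest feature 217 and 260, no filter 757 and 965, a filter at the 75th percentile 21 and 11, 1.5-fold 524 and 373, and 3-fold 28 and 55. Low signal limits SESN3, RRAGD and 1 feature each of SESN1 and RRAGB.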

Other observations

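STK11 encodes LKB1, the kinase that activates AMPK, which restrains mTORC1 through TSC2. It was below the filter, so it is missing from the counts above, and is named after its values were seen. Its mean intensity was 123 on the PAX2-labelled array and 47.8 on the control array, both within the range of silent genes, so no difference is given. FNIP1, a partner of folliculin, had mean intensities of 104 on the PAX2-labelled array and 56.8 on the control array, also within that range.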
